A study of Danio rerio with 6 samples.

Results

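In wild-type (WT) zebrafish embryos 48 hours after fertilization (48 hpf), 2628 of the 23491 CTCF sites on chromosomes 1 to 25 (11.2%) stood in 760 dense runs. A site was a merged region of overlapping peaks that held a peak of each of the 2 WT 48 hpf libraries. Sites were ordered by position, neighbours less than 10 kb apart from edge to edge were joined, and a run was kept when it held 3 or more sites. The runs were therefore chosen by the WT 48 hpf peaks themselves, so the number of sites, their spacing and their WT 48 hpf signal are given as a description, without a test. The 24 hpf and ctcf-/- libraries took no part in the choice.

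CTCF was profiled by ChIPmentation, a chromatin immunoprecipitation in which Tn5 transposase adds the sequencing adapters, on chromatin of whole embryos with an antibody against zebrafish CTCF. The samples were WT embryos (AB/Tübingen) at 24 and 48 hpf, and ctcf-/- embryos at 48 hpf, with 2 libraries in each of these 3 groups. The ctcf-/- embryos carry a CRISPR/Cas9 deletion in ctcf and come from heterozygous parents, so they received CTCF from the mother early in development. By the stage profiled here, the authors report, western blots of ctcf-/- embryos showed that the protein was entirely lost. They also report that a small subset of strong sites stayed bound in the mutant. Whether the ctcf-/- peaks mark remaining CTCF was not tested. Embryos were pooled for each immunoprecipitation, and whole embryos mix all cell types, so fewer cells with a bound site and weaker binding in each cell cannot be told apart. The labels do not say whether the 2 libraries of a group came from separate clutches, and the spread between them may be technical.

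CTCF is a zinc finger protein that binds a long, directional DNA motif and acts as an insulator. It halts the loop extrusion carried out by cohesin, and its sites mark the boundaries of topologically associating domains and the anchors of many loops. Several CTCF sites close together are known at domain boundaries of vertebrates, and the Hox clusters are a classic case of genes separated by successive CTCF sites.

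The 6 peak lists held 162429 peaks in all, from 67512 in WT 24 hpf replicate 1 to 1706 in ctcf-/- replicate 2. The WT 48 hpf lists held 31014 and 33130 peaks, WT 24 hpf replicate 2 held 26350, and ctcf-/- replicate 1 held 2717. Read totals are not part of the peak lists, but the fold enrichment and the p-value of a peak together gave its number of fragments at the summit and its local background. The lowest background of each list, taken as its genome background, was 44.0 and 12.4 tags per 10 kb for the WT 24 hpf replicates, 19.8 and 17.9 for the WT 48 hpf replicates, and 8.50 and at most 4.00 for the ctcf-/- replicates. The ctcf-/- lists thus rested on the fewest tags, which limits what they could detect, and the 24 hpf replicates differed more in depth than the WT 48 hpf replicates.

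Most runs were short. There were 555 runs of 3 sites, 139 of 4, 38 of 5 and 13 of 6, and the other 15 runs held 7 to 15 sites each. A run held 3.46 sites on average. The median span was 12162 bp (quartiles 8870 and 15950 bp), and the spans ranged from 1227 to 59341 bp. All runs together covered 9.91 Mb, which is 0.740% of the length of the 25 chromosomes up to their last peak. The sites filled a median of 9.01% of the span of a run, with a median density of 2.67 sites per 10 kb.

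**Figure D1:**
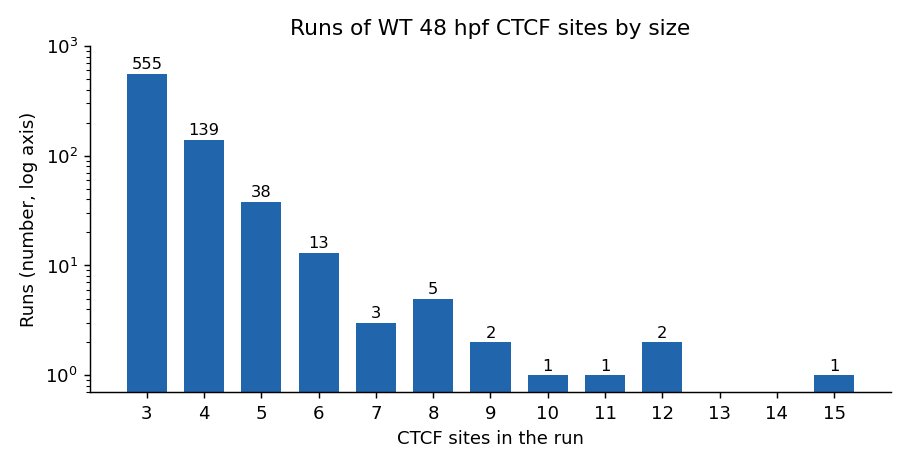
Number of runs (vertical log axis) by the number of WT 48 hpf CTCF sites in the run (horizontal axis). Runs of 3 sites (555) make up most of the 760 runs, and a single run holds 15 sites.

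Spacing inside the runs reached up to the limit that defined them. Of the 1868 gaps inside runs, 951 (50.9%) measured 5 to 10 kb and 280 were shorter than 1 kb, with a median of 5063 bp. Over all 23466 gaps between neighbouring sites of a chromosome the median was 31606 bp, and 4761 gaps (20.3%) were under 10 kb. No break in the distances marked the limit: 467 gaps measured 9 to 10 kb and 462 measured 10 to 11 kb, with 9995 bp as the longest gap joined and 10001 bp as the shortest not joined. Just below the minimum size lay 2893 pairs of sites, and 15077 sites stood alone. The median distance from a run to the nearest site outside it was 22680 bp, and 326 of the 760 runs had another site within 20 kb.

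Run sites were unevenly placed along the chromosomes. The rule did not use the place on the chromosome, but it used the spacing of the sites, which varies with their density. In the outer 1 Mb of the chromosomes, counted from the first base and from the last listed peak, 498 of 1761 sites (28.3%) lay in runs, against 1453 of 14248 sites (10.2%) more than 10 Mb from an end. The sites themselves were denser in the outer 1 Mb, at 35.2 per Mb against 17.0 per Mb. Denser sites leave more gaps under 10 kb, so the share in runs is not independent of this density. Whether it exceeded what the density alone gives was not tested. The share in runs was higher in the outer 1 Mb than in the rest of the chromosome on 24 of the 25 chromosomes. Runs built by the same rule from the 24 hpf sites, which share no library with the 48 hpf sites, had 24.2% of 1659 sites in runs in the outer 1 Mb and 9.22% of 13312 sites more than 10 Mb from an end, and the share was higher in the outer 1 Mb on 22 of 25 chromosomes.

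Chromosome 4 held the highest share of sites in runs, 172 of 839 (20.5%), while the other chromosomes ranged from 7.95% (chromosome 20) to 14.3% (chromosome 21) around a median of 10.5%. At 24 hpf the share on chromosome 4 was 21.9%, above the 6.95% to 13.2% of the other chromosomes. The long arm of zebrafish chromosome 4 is known to be rich in repeats and poor in conserved protein-coding genes. The run sites lay almost wholly outside the far part of the chromosome: 169 of the 172 fell in the first 38310857 bp, where 23.1% of 733 sites were in runs, and 3 fell beyond, where 2.83% of 106 sites were. The number of sites per Mb and the share of sites in runs were weakly related across the 25 chromosomes (Spearman rho 0.209, a description over chromosomes that share the same 2 libraries). Chromosome 4 had the lowest density, 10.9 sites per Mb over its whole length, with the highest share. That density averages a part with 733 sites and a part with 106 sites, and the run sites lay almost wholly in the denser part. The relation without chromosome 4 was not computed.

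**Figure D2:**
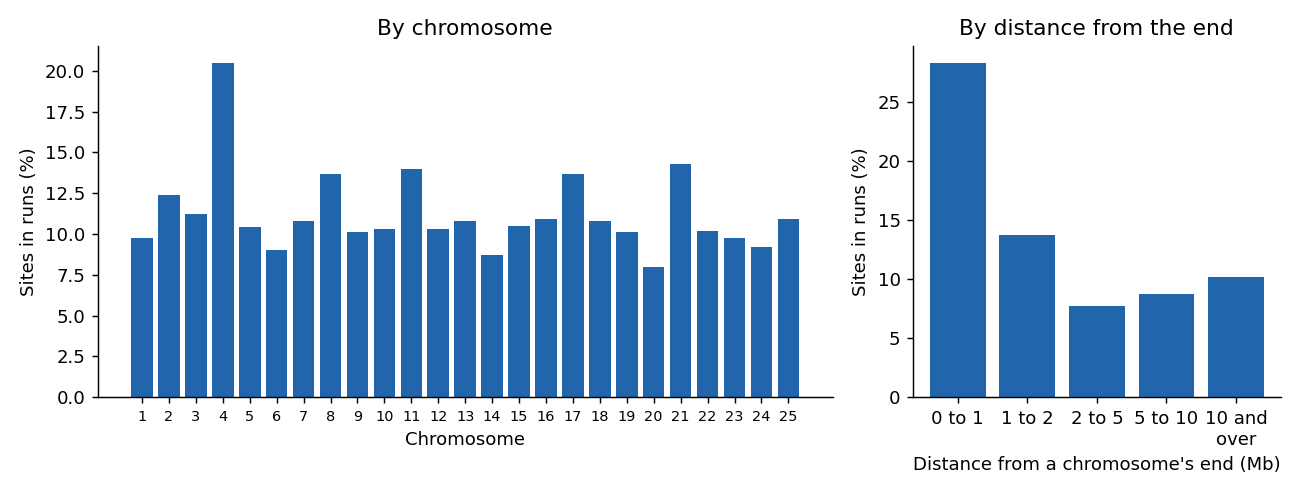
Percent of WT 48 hpf CTCF sites that lie in runs, by chromosome (left) and by distance from the nearer chromosome end in Mb (right). Chromosome 4 stands highest at 20.5%, and the outer 1 Mb at 28.3%.

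In WT embryos at 48 hpf the run sites ranked lower in fold enrichment than other sites although they carried more fragments. The median percentile of fold enrichment within the list was 51.2 in replicate 1 and 55.4 in replicate 2 for run sites, and 62.1 and 64.4 for sites outside runs. The median summit height was 27 and 26 fragments in runs against 21 and 20 outside. The local background, which the peak caller estimates over windows of up to 10 kb and by which it divides, was 108 and 102 tags per 10 kb in runs against 60 and 58 outside. A lower fold enrichment thus did not go with fewer fragments at run sites, and how much of the local background comes from neighbouring sites was not tested.

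The same ordering was present at 24 hpf, in libraries that took no part in choosing the runs. At run sites with a peak the median summit height was 46 fragments in replicate 1 and 21 in replicate 2, against 35 and 16 outside runs. The median local background was 211 and 76 tags per 10 kb, against 121 and 42. The median percentile of fold enrichment was 62.2 and 57.9 in runs and 76.3 and 63.6 outside.

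Pooled over all runs, inner sites had more fragments and more background than end sites at 48 hpf. Longer runs supply more of the inner sites, so place in the run was not separated from run size. The median summit height was 25 and 24 fragments in runs of 3 sites and 54 and 40 in runs of 7 to 15. The median summit height was 30 and 29 fragments for the 1108 inner sites and 26 and 24 for the 1520 end sites. The median local background was 130 and 128 tags per 10 kb for inner sites and 93 and 90 for end sites, and the median percentiles were 48.5 and 51.9 against 54.9 and 57.8. In fold enrichment, runs were mixtures of strong and weak sites: from the lowest to the highest site of a run the percentile spanned a median of 45.6 points. The replicates ranked the run sites alike (Spearman rho 0.843 over 2628 sites). The intraclass correlation, the share of the variance that lies between runs, was 0.174 for the percentile in either replicate. In the 706 runs without a site of high background, defined next, it was 0.031 and 0.029. Nearly all of the variance in the percentile thus lay within such runs. The members of these 706 runs were more alike in the other measures. There the intraclass correlation was 0.156 and 0.133 for the summit height and 0.418 and 0.401 for the local background.

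A small set of runs had a very high background over their whole length. A WT 48 hpf site was called high in local background when that background was at least 20 times the genome background in either replicate. Such sites numbered 273, of which 219 (80.2%) lay in runs, so they made up 8.33% of run sites and 0.259% of other sites. They were concentrated in 54 runs, 25 of which consisted of such sites alone and packed them at a median gap of 1073 bp. The share of high-background sites was 2.04% in runs of 3 sites, 9.53% in runs of 4 and 63.3% in runs of 7 to 15. In the 219 run sites of high background the median local background was 739 and 490 tags per 10 kb in WT at 48 hpf. At the 207 and 164 of these 219 sites with a peak in the WT 24 hpf replicates it was 1302 and 386 tags per 10 kb there. At the 157 and 119 of these 219 sites with a ctcf-/- peak it was 1059 and 485 tags per 10 kb in the ctcf-/- libraries. Relative to each list's genome background these values were 37.4 and 27.3 times for WT 48 hpf, 29.6 and 31.1 times for WT 24 hpf, and 125 and at least 121 times in ctcf-/-.

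The share of run sites found at 24 hpf differed from that of other sites by less than the 24 hpf replicates differed from each other. A 24 hpf site, again a merged region with a peak of both replicates, overlapped 2000 of the 2628 run sites (76.1%, 95% Wilson interval 74.4% to 77.7%), against a background of 75.1% of all sites and 75.0% of the sites outside runs. Intervals here cover counting error only, because sites share libraries. Peaks of WT 24 hpf replicate 1 overlapped 93.3% of run sites and 94.7% of other sites (94.6% of all), and peaks of replicate 2 overlapped 78.7% and 76.7% (76.9% of all). The 2 replicates thus differed in direction, by -1.48 and 1.94 percentage points. The share was higher in runs on 14 of the 25 chromosomes.

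The share overlapped at 24 hpf lay between 71.2% and 80.5% in every class of run size. It was 74.9% for single sites, 75.0% for pairs, 75.7% in runs of 3, 76.8% in runs of 4, 80.5% in runs of 5, 78.2% in runs of 6 and 71.2% in runs of 7 to 15 (99 of 139 sites, interval 63.2% to 78.1%). Without sites of high background it was 74.9% for single sites, 75.0% for pairs, 75.4% in runs of 3 and 77.1% in runs of 4. In runs of 5, 6 and 7 to 15 it was then 80.8%, 79.4% and 80.4%, the last over 51 sites. Within quartiles of WT 48 hpf fold enrichment, run sites were overlapped more often than other sites: 54.5% against 44.7% in the lowest quartile, 75.3% against 66.5% in the second, 94.0% against 88.1% in the third and 98.2% against 97.9% in the highest. Within classes of local background the order turned: 70.2% of run sites against 76.5% of other sites at 2 to 4 times the genome background, and 80.5% against 90.7% at 4 to 8 times.

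The 628 run sites without a 24 hpf site were mostly weak sites that 1 of the 24 hpf lists still held. Replicate 1, the deeper list, alone had a peak at 448 of them (71.3%), replicate 2 alone at 79, and 97 (15.4%) had no 24 hpf peak at all. At 48 hpf their median summit height was 17 fragments in both replicates, against 31 and 30 at the run sites with a 24 hpf site, and their median percentiles were 28.8 and 32.0. Neither trait was particular to runs. A peak of either 24 hpf replicate lay at 96.3% of all run sites and at 96.6% of other sites. Outside runs, too, weak sites had a 24 hpf site least often, from 44.7% in the lowest quartile of fold enrichment to 97.9% in the highest.

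Taken run by run, 311 of 760 runs (40.9%) had a 24 hpf site at every member, 409 had one at 3 or more members, and 13 had none. Of all sites 75.1% overlapped a 24 hpf site, and whether these counts differ from what that share gives was not tested. Built from the 24 hpf sites by the same rule, there were 670 runs with 2296 of 22082 sites (10.4%), and the largest held 11 sites. Of the 48 hpf runs 406 (53.4%) overlapped a 24 hpf run, and 406 of the 24 hpf runs (60.6%) overlapped a 48 hpf run. The overlap was 46.8% for 48 hpf runs of 3 sites and 86.4% for the 66 runs of 5 or more sites. The rule itself favours longer runs here, because a 24 hpf run needs 3 sites and a longer run has members to spare. Whether larger runs are more stable between the stages was not tested. Runs without a counterpart usually fell short by 1 site: of the 354 such 48 hpf runs 237 had 2 members at a 24 hpf site, and of the 264 such 24 hpf runs 176 had 2 members at a 48 hpf site. Of the sites of 24 hpf runs 79.5% overlapped a 48 hpf site, and of other 24 hpf sites 79.4% did.

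In ctcf-/- embryos few run sites had a peak, yet the share was higher than at other sites. A peak of either ctcf-/- library overlapped 380 of 2628 run sites (14.5%, interval 13.2% to 15.9%), against 7.33% of other sites and a background of 8.13% of all sites. In replicate 1 the shares were 10.9% in runs and 4.78% outside (5.47% of all), and in replicate 2 they were 10.8% and 5.26% (5.88% of all). A ctcf-/- site with a peak of both replicates overlapped 7.31% of run sites and 2.70% of other sites (3.21% of all). The excess was 6.14 percentage points in ctcf-/- replicate 1 and 5.59 in replicate 2, while the corresponding 24 hpf differences were -1.48 and 1.94. The mean excess was 5.64 percentage points higher for the ctcf-/- libraries, and the exact two-sided permutation test over the 2 and 2 libraries gave p = 0.33, the smallest value that this design allows. These 2 groups differ in both stage and genotype, and their shares lie at very different levels.

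The excess moved with the local background. Without the sites of high local background, 215 of 2409 run sites (8.92%) and 7.17% of other sites had a ctcf-/- peak. The excess was 0.769 percentage points in replicate 1 and 1.77 in replicate 2. The exact two-sided permutation test against the 24 hpf differences gave p = 1.00. That test asks whether the ctcf-/- and 24 hpf libraries differ, and with so few libraries its smallest possible value is 0.33. For both reasons it cannot decide whether an excess remained in the ctcf-/- libraries. When sites of at least 10 times the genome background were left out before runs were built, a limit chosen after seeing the data, the share in runs was 4.81% and lay 1.02 percentage points below that of other sites (run minus other, -1.02). With the limit at 20 times the genome background, 165 of the 219 high-background run sites (75.3%) had a ctcf-/- peak, and so had 68.5% of the 54 high-background sites outside runs. Whether the background accounts for the excess was not tested.

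Within classes of local background, run sites had a ctcf-/- peak no more often than other sites up to 20 times the genome background. The classes are wide, so the background is only roughly equal within them. At 1 to 2 times the shares were 0.962% of 208 run sites (2 sites) and 0.996% of other sites. At 2 to 4 times they were 1.58% (10 run sites, interval 0.863% to 2.89%) and 2.80% (2.47% to 3.17%), and these intervals overlap. At 4 to 8 times they were 7.80% and 11.5%, and at 8 to 20 times 21.1% (interval 18.1% to 24.4%) and 35.6% (33.2% to 38.0%). At 20 times and over, the shares were 75.8% of 207 run sites (69.6% to 81.2%) and 68.8% of 48 other sites (54.7% to 80.1%), whose intervals overlap. Grouped by fold enrichment, run sites had the higher share in every quartile, from 17.0% against 1.11% in the lowest to 26.7% against 21.5% in the highest. Without high-background sites these shares were 2.74% against 0.910% in the lowest quartile and 26.4% against 21.3% in the highest. The direction of the difference thus depended on whether sites were grouped by fold enrichment or by background.

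**Figure D3:**
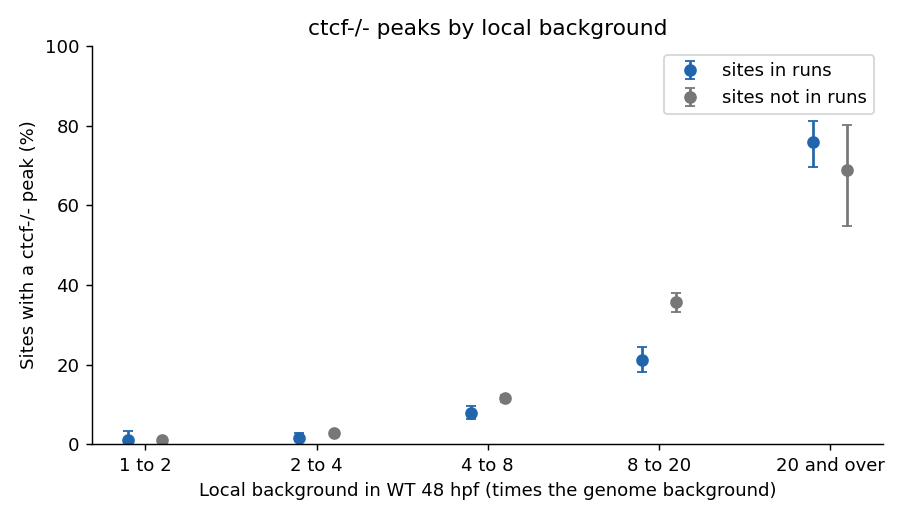
Percent of WT 48 hpf sites with a peak in either ctcf-/- library (vertical axis) by the local background in WT 48 hpf, the mean of both replicates, in multiples of the genome background (horizontal axis). Bars are 95% Wilson intervals, and run sites lie below other sites at 8 to 20 times (21.1% against 35.6%) but not at 20 times and over (75.8% against 68.8%).

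The share of sites with a ctcf-/- peak was highest in the largest runs. It was 7.35% for single sites, 7.28% for pairs, 9.07% in runs of 3, 14.6% in runs of 4, 23.7% in runs of 5 and 17.9% in runs of 6. In runs of 7 to 15 sites it was 64.0% (89 of 139 sites), with 61.9% in ctcf-/- replicate 1 and 49.6% in replicate 2. Without sites of high background it was 8.34% in runs of 3, 9.54% in runs of 4 and 8.33% in runs of 5. It was then 10.3% in runs of 6 (7 of 68 sites) and 21.6% in runs of 7 to 15 (11 of 51 sites). Without the runs of 7 or more sites, a choice made after seeing the data, the share over all run sites was 11.7%. Sites closer to a neighbour had it more often, from 8.62% at 5 to 10 kb from the nearest site to 25.2% within 1 kb, where 23.7% of the sites had a high background. Without the high-background sites the shares were 8.21% at 5 to 10 kb and 8.19% at 2 to 5 kb. They were 12.4% at 1 to 2 kb (251 sites) and 9.95% within 1 kb.

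**Figure D4:**
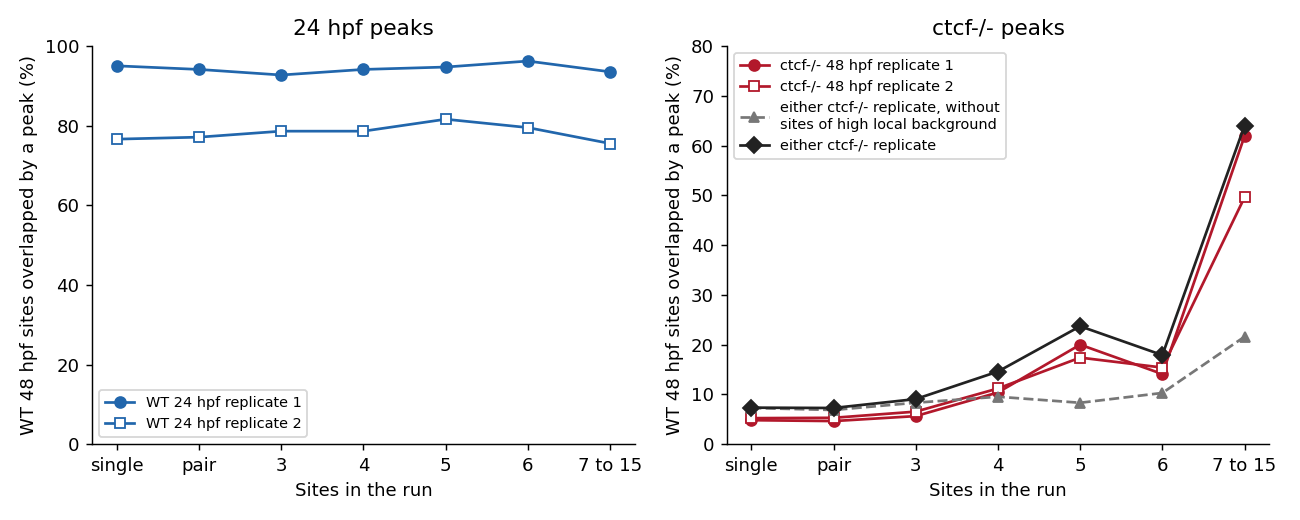
Percent of WT 48 hpf sites overlapped by a peak (vertical axes) by the number of sites in the run (horizontal axes), for each WT 24 hpf replicate (left) and each ctcf-/- replicate, either ctcf-/- replicate, and either replicate without sites of high local background (right). The 24 hpf lines stay nearly level, while the share with a peak in either ctcf-/- library reaches 64.0% in runs of 7 to 15 sites, or 21.6% without high-background sites.

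Peaks in ctcf-/- embryos were absent from the members of most runs, and a minority of the run sites with such a peak was gathered in few runs. No member had one in 539 of the 760 runs (70.9%), 166 runs had 1 such member and 28 had 2. Of all sites 8.13% had such a peak, so most small groups of sites would lack one in any case. The other 27 runs had 3 or more and together held 158 of the 380 sites, and 26 of these 27 runs held a high-background site. Every member had a ctcf-/- peak in 21 runs. In the 25 runs made only of high-background sites, 106 of 130 sites (81.5%) had a ctcf-/- peak, against 197 of 2350 sites (8.38%) in the 706 runs without any. Seen from the ctcf-/- lists, 11.3% of the replicate 1 peaks and 17.9% of the replicate 2 peaks lay at run sites, against 8.71% and 8.16% of the WT 48 hpf peaks. Built by the same rule from the ctcf-/- sites, 23 runs resulted, of which 21 (91.3%) overlapped a WT 48 hpf run. The rule itself favours this overlap: the 792 ctcf-/- sites on these chromosomes overlapped 755 WT 48 hpf sites, which the same limit then joins. Whether the overlap exceeds what this gives was not tested.

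The run with the most sites lay at chr10:16831105-16881868 (danRer10, as are all positions here) and held 15 sites in 50764 bp. All of its sites had a peak in ctcf-/- replicate 1 and 13 had one in replicate 2, and 11 overlapped a 24 hpf site. Its summit heights were 45 to 183 fragments (median 91) in WT 48 hpf replicate 1 and 32 to 146 (median 58) in replicate 2. In ctcf-/- they were 62 to 215 (median 113) in replicate 1 and 27 to 149 (median 60) in replicate 2. The summit heights of the 2 groups thus overlapped, although the ctcf-/- libraries held fewer tags over the genome. Whether the peaks of this run mark CTCF binding, in either genotype, was not tested. The median local background stood at 50.4 and 34.3 times the genome background in WT 48 hpf, and at 147 and at least 155 times in ctcf-/-.

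The runs at chr17:45194757-45235142 (12 sites), chr16:26048564-26068630 (10 sites) and chr14:19789195-19810613 (9 sites) were of the same kind. Their members with a ctcf-/- peak numbered 11, 10 and 8, and those of high background 11, 10 and 9. In the chromosome 16 run the summit heights were 48 to 121 fragments in WT 48 hpf replicate 1 and 55 to 122 in ctcf-/- replicate 1, and 25 to 83 and 41 to 80 in the second replicates, where 6 of the 10 sites had a ctcf-/- peak. Its median percentile of fold enrichment was 0.483, so nearly all other peaks ranked above it. The 3 runs with the most ctcf-/- peaks were those on chromosomes 10, 17 and 16.

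A second run of 9 sites, with a longer span, lay at chr7:52730538-52764972, where all 9 sites had a peak in each ctcf-/- library and 5 had a high background. The 2 runs of 11 and 12 sites on chromosomes 4 and 1 had 1 ctcf-/- peak between them. The run at chr4:5904931-5960812 had 11 sites in 55882 bp, of which 8 overlapped a 24 hpf site and none a ctcf-/- peak. Its summit heights were 13 to 52 fragments in WT 48 hpf replicate 1 and 12 to 52 in replicate 2, and its median background was 6.73 and 6.86 times the genome background. At chr1:14905-74245, close to the start of the chromosome, 12 sites spanned 59341 bp with summits of 20 to 91 and 21 to 85 fragments. Of these, 8 overlapped a 24 hpf site, 5 had a high background, and 1, the last of the run, had a peak in ctcf-/- replicate 2 with 11 fragments at the summit. Of the 15 runs of 7 or more sites, 11 held a high-background site, and in 9 most sites had a ctcf-/- peak.

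**Figure D5:**
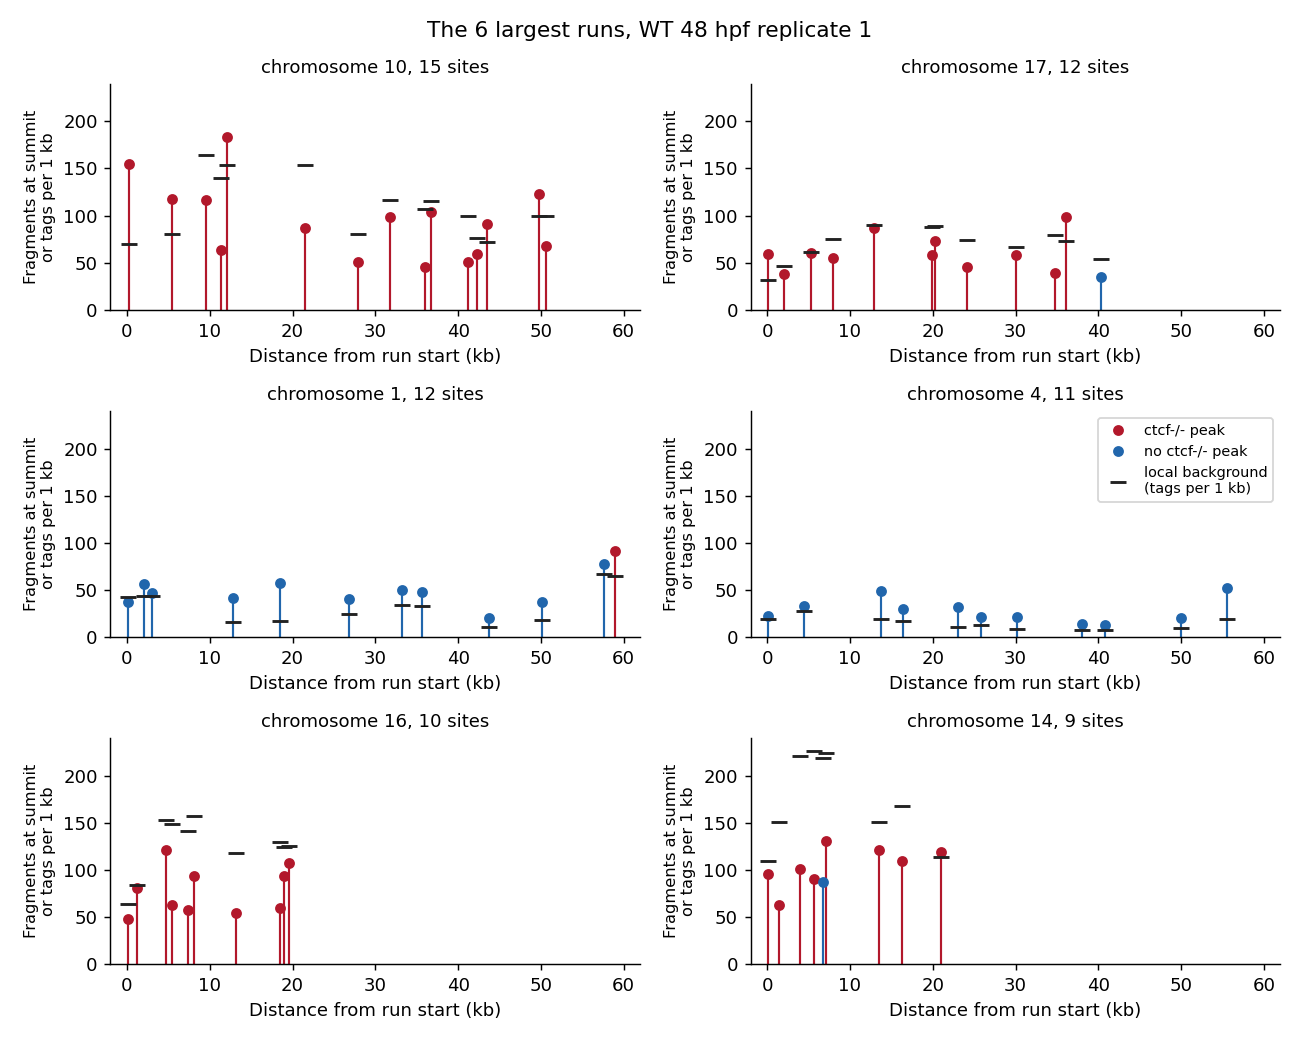
The 6 runs with the most sites (of 2 runs with 9 sites, the one with the shorter span), each site drawn at its distance in kb from the start of its run (horizontal axes), with its fragments at the summit in WT 48 hpf replicate 1 (dots) and its local background in tags per 1 kb (dashes) on the vertical axes. Red dots mark sites with a peak in either ctcf-/- library: all 15 on chromosome 10 and none of the 11 on chromosome 4.

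Among runs of 6 or more sites, the highest median percentiles of fold enrichment were found at chr4:16002331-16034331 (84.5), chr3:30948303-30971673 (76.1) and chr7:73922013-73948349 (64.0), with 6 sites each. These values were part of the data that chose the runs. Summits in the first of them were 11 to 78 fragments in WT 48 hpf replicate 1 and 16 to 84 in replicate 2. At 24 hpf 5 of its 6 sites had peaks in both replicates, with 49 to 86 and 9 to 63 fragments, and none of its sites had a ctcf-/- peak. The other 2 runs had 5 and 6 sites at a 24 hpf site and 1 ctcf-/- peak each, in replicate 2 only, with 17 and 9 fragments.

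A peak of either 24 hpf replicate lay at 96.3% of run sites and 96.6% of other sites. The most members lacking any 24 hpf peak in a run were 2, which 4 runs had. Whether this count differs from what these shares give was not tested. One of the 4 was the run of 11 sites on chromosome 4. The others, in which such members made up a larger share, lay at chr8:34831356-34835716, where 4 sites stood within 4361 bp, at chr2:43767757-43784547 (3 sites) and at chr23:27792116-27802423 (4 sites). The chromosome 23 run was the only one of the 4 without a single 24 hpf site. Its summits were low, at 10 to 20 and 12 to 26 fragments in WT at 48 hpf, and 2 members had a peak in WT 24 hpf replicate 1. In the chromosome 8 run 3 of 4 sites had a high background and 3 had a ctcf-/- peak, while the chromosome 2 and 23 runs had none of either.

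The HoxD region of chromosome 9, with the bounds used in the study's methods, holds genes for homeodomain transcription factors that pattern the body axis and the fins. It contained 2 runs, at chr9:1843520-1863062 with 5 sites and at chr9:1956586-1971766 with 4 sites. In each run 3 sites overlapped a 24 hpf site, and every site had a peak in WT 24 hpf replicate 1. The strongest site of the second run, its first, had 64 and 56 fragments at the summit in WT at 48 hpf and 88 and 36 at 24 hpf. The 5 sites of the first run had 9 to 30 and 11 to 32 fragments in WT at 48 hpf. Each run had 1 ctcf-/- peak, in replicate 2 only, with 9 fragments in the first run and 7 in the second, and at the strongest site of each. None of the 9 sites had a high background, with medians between 4.66 and 8.08 times the genome background.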

How the data were processed

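CTCF ChIPmentation was analysed in 6 libraries of whole zebrafish embryos, grouped by the labels into WT 24 hpf, WT 48 hpf and ctcf-/- 48 hpf. The authors aligned reads to GRCz10 (danRer10) with Bowtie2, removed pairs over 2 kb apart, and called peaks per library with MACS2 at a false discovery rate of 0.001. For the ChIPmentation peak calls, the MACS2 version and an input control were not given in the sources used here. The deposited peak lists give the fold enrichment at the summit (a ratio to the local background), −log10 p-value and −log10 q-value, a display score (not used), and the summit offset.

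WT 48 hpf sites, runs and overlaps (at least 1 bp) were computed with scipy 1.17.1, pandas 2.3.3 and numpy 2.4.6 in Python 3.11.15, and bedtools 2.31.1 gave the same 23959 sites on all sequences. Summit fragments and local background were solved from fold enrichment and p-value under the MACS2 Poisson model (100% of peaks within 0.002 on the −log10 scale; 0.141% to 2.34% allowed more than 1 solution). They are estimates, and the lowest background of a list stands for the genome background, an upper bound where few peaks exist. These steps recovered 100% of the summit heights of 2000 simulated peaks. The simulated peaks were made with the same formulas, so this checks the solving and not whether the model holds for the lists. A site overlapped by several peaks of a library took the values of the one with the highest fold enrichment.

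Shares carry 95% Wilson intervals. No test was run across sites, and libraries were compared by exact permutation. Runs were named by size, by number of ctcf-/- peaks, by number of members without a 24 hpf peak (ties by the higher share of such members, then by the shorter span), by median percentile among runs of 6 or more sites, and by place in the HoxD region. Members, lists and limits were chosen with earlier results of these data known. Sequences, motifs and gene positions were not used here, since no annotation of the files' build was at hand.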

Additional observations from a re-analysis of the deposited data

How the results depend on the processing

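The number of run sites and of runs follows the rule: 669 sites in 198 runs with gaps under 5 kb, 7215 in 1910 under 20 kb, 11206 in 2688 under 30 kb, 963 in 205 with a minimum of 4 sites, 8606 in 2407 with a peak in either WT 48 hpf replicate, and 1429 in 418 at a −log10 q of at least 10. With 1 WT 48 hpf replicate alone, 5056 to 5426 sites fell in 1424 to 1575 runs. At a −log10 q of at least 5, with summits within 100 bp, or without high-background sites, the counts stayed within 1.5 times those reported (2271 to 2575 sites, 662 to 744 runs).

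The 24 hpf share of run sites was 96.3% with a peak in either 24 hpf replicate and 63.9% to 93.3% when 1 library was left out. In 10 of 14 alternatives it moved by less than 1 SD of the shares of the 24 hpf replicates (10.3 percentage points). The run-minus-other difference of 1.15 percentage points reversed to -1.74 with gaps under 5 kb and to -0.331 with a peak in either 24 hpf replicate. Leaving out 1 library gave -1.48 (without WT 24 hpf replicate 2) to 4.85 (without WT 48 hpf replicate 1).

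The ctcf-/- share of run sites was 26.2%, 10.2% and 9.25% with gaps under 5, 20 and 30 kb (differences of 18.6, 3.01 and 2.14 percentage points), and 23.8% (16.3) with a minimum of 4 sites. It was 14.3% and 13.9% (8.72) at a −log10 q of at least 5 and 10, 14.0% without chromosome 4, 9.89% (6.62) with an overlap of at least 50% of the site, and 7.31% (4.61) for ctcf-/- sites with a peak of both replicates. Without high-background sites it was 8.92% (1.75). The 2 alternatives added after seeing the data gave 11.7% (4.36) without runs of 7 or more sites and, with sites of at least 10 times the genome background left out before runs were built, 4.81%, where the difference reversed to -1.02. Leaving out 1 library gave 9.31% to 10.9% (3.86 to 6.14). The difference kept its sign in 15 of 16 alternatives, and the cause of its changes was not tested.

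No paired analysis was possible because these shares come from no fitted test and the replicate numbers tie no libraries of different groups together in the labels. The ctcf-/- lists rest on few tags, so a weak peak there was not detectable at this depth, and the local background is an estimate.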
